A study of Mus musculus with 6 samples.

Results

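The genes that drive and restrain the cell cycle (the cyclins, the cyclin-dependent kinases or CDKs, the CDC25 phosphatases, the CDK inhibitors, the pocket proteins and the E2F factors) were examined in activated mouse CD8 T cells. Members, chosen by name, were all genes of the deposited table whose symbol begins with Ccn, a letter and a digit, with Cdk or Cdkn and a digit, or with E2f and a digit, together with Cdc25a to Cdc25c, Rb1, Rbl1 and Rbl2. This gave 64 of 13883 genes. The rule used symbols only and no measured value. It also took in 11 genes outside the role groups used below, matched by the start of a symbol alone. Examples are the Cdk5rap genes and the pseudogene Ccnb1-ps, and these 11 are described last. Total RNA had been sequenced from wild-type CD8 T cells, taken from lymph nodes and spleen and stimulated through CD3 and CD28. Overnight the cells were in 20 mM NaCl, the control, or in 20 mM DAHB, for which the labels give a code name and no structure. There were 3 samples of 100000 cells in each group, all with the same batch label. The labels used here state no sex, age or strain, and no label ties the samples of a group to separate mice or cultures, so p-values reflect only how far these samples differ from each other, which can be technical.

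Cyclins are regulatory subunits that switch on the CDKs in a fixed order. D-type cyclins with CDK4 or CDK6, and then E-type cyclins with CDK2, phosphorylate the retinoblastoma protein and its relatives, which frees E2F factors to transcribe genes of DNA synthesis. Cyclin A and cyclin B with CDK2 and CDK1 carry the cell through S phase into mitosis, the CDC25 phosphatases remove an inhibitory phosphate from the CDKs, and the INK4 and CIP/KIP proteins hold the kinases back. Activated T cells enter this cycle after antigen receptor and CD28 signalling, and cyclin D2, cyclin D3 and CDK6 are the forms prominent in lymphocytes.

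Libraries held 31055613 to 56007582 reads in the genes of the table. Values are read counts per gene divided by a size factor for each library, called normalised counts below, so a rise or a fall is relative to the bulk of genes. The CD8 T cell markers Cd3d, Cd3e, Cd8a, Cd8b1 and Trac summed to 35262 to 36256 with NaCl and 42170 to 44695 with DAHB. They did not move together. By the limma-trend test described below, Cd8a and Cd8b1 rose with DAHB (log2 fold changes 0.59 and 0.51). Cd3d and Trac fell (-0.20 and -0.31), and Cd3e did not pass the test (0.09). Of the markers of other cells, Cd4 was at 6.24 to 18.8 and 54.2 to 72.4, and the myeloid genes Lyz2, Csf1r and Itgam summed to 374 to 785 and 700.3 to 995. The summed level of Col1a1 and Pecam1 was 683 to 727 with NaCl and 1181 to 1256 with DAHB, and in every library Pecam1 was the larger part. The part of other cells in the changes of the members was not tested. The B cell, NK cell and erythroid markers were not analysed here.

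With DAHB the D-type cyclins that lymphocytes use were higher, while their kinase gene Cdk4 and most cyclins of later phases were lower. Ccnd2, Ccnd3 and Cdk6 rose, and Cdk4, Ccne2, Ccna2, Cdk2, Ccnb1 and Ccnb2 fell, whereas Ccne1 and Cdk1 did not pass the test. The inhibitor genes split: Cdkn1a, Cdkn1c, Cdkn2a and Cdkn2d rose, Cdkn1b fell and Cdkn2c did not pass the test. The call of Cdk6 was lost in 4 of 16 alternative settings described below. That of Cdkn2a, which had few reads, was lost in 1 of 15. All 64 members passed the filter on low values (3 or more libraries at 10 or above). By limma-trend on log2(normalised count + 1), with Benjamini-Hochberg adjustment over 13804 genes and a threshold of 0.05, 20 members rose and 25 fell. These are 31.2% and 39.1% of the members. Of all genes tested 29.4% rose and 29.1% fell, or 58.5% in either direction. Among genes with a mean of at least 100 over the libraries, 28.6% of 56 members rose and 44.6% fell, against 28.3% and 37.0% of 10201 genes. The median log2 fold change of the members was -0.08, against 0.00 over all genes.

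Most of these changes were small. Among the 45 members called, 35 moved by less than 1.5-fold, and the smallest call was 1.09-fold. Of all members 15.6% were called with a change of at least 1.5-fold, against 23.2% of all genes, and 4.69% with at least 2-fold, against 12.5%. The 3 members that changed at least 2-fold, Cdkn1c, Cdkn2a and Cdk18, all rose and all had few reads. The 2 groups were fully apart for 47 members, or 73.4%, against 63.4% of all genes. The coefficient of variation within a group had a median over members of 3.63% with NaCl and 5.27% with DAHB.

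**Figure D1:**
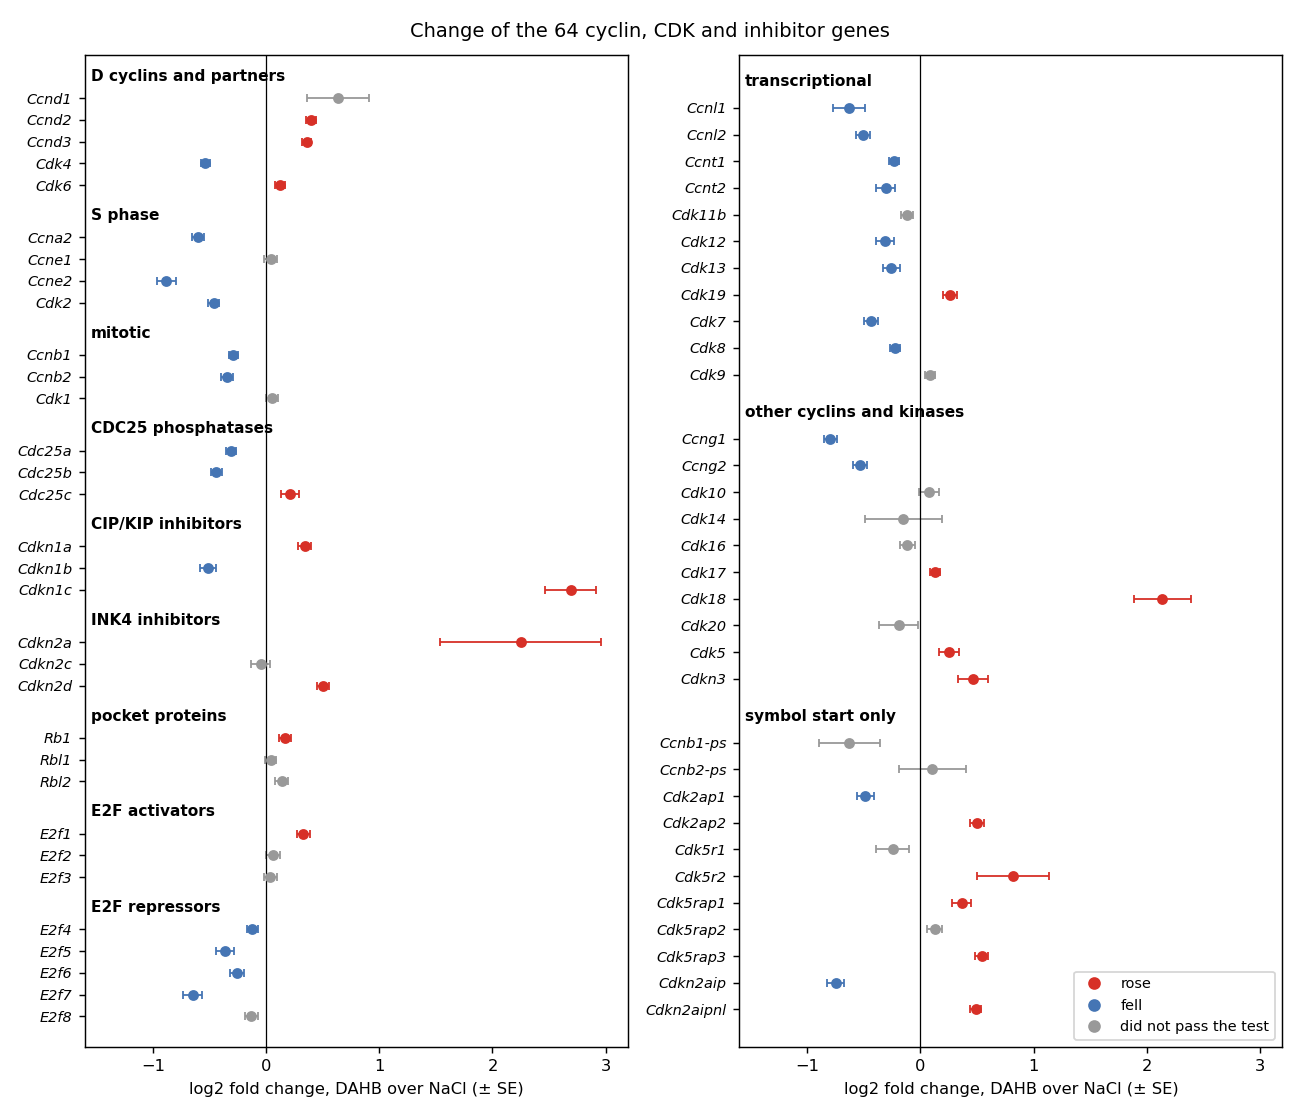
Each point is the log2 fold change of DAHB over NaCl for 1 member, with its standard error as a bar, grouped by role; red points rose, blue points fell and grey points did not pass the test (limma-trend, n = 3 per group). The members called lie between -0.88 (Ccne2) and 2.69 (Cdkn1c), and Cdkn1c, Cdkn2a and Cdk18 are the points furthest to the right.

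D-type cyclins couple growth signals to the start of the cycle. Ccnd2 (ENSMUSG00000000184, chromosome 6, 127125162 to 127152193, GRCm38), the most abundant member, had normalised counts of 42039, 43853 and 41395 with NaCl and 56526, 55743 and 55432 with DAHB. Every DAHB library was above every NaCl library, and Ccnd2 rose from 42429 ± 1275 to 55900.2 ± 564 (SD, n = 3), or log2 fold change 0.40, SE 0.045, adjusted p = 3.67e-06. Ccnd3 (ENSMUSG00000034165, chromosome 17, 47505051 to 47599691) was at 7392, 7009 and 7251 with NaCl and 9123, 9227 and 9396 with DAHB. It rose by nearly the same proportion, from 7218 ± 194 to 9249 ± 138 (SD, n = 3), or log2 fold change 0.36, SE 0.041, adjusted p = 4.99e-06. The ratio of Ccnd2 to Ccnd3 within a library does not depend on the scaling, and it was 5.69, 6.26 and 5.71 with NaCl and 6.20, 6.04 and 5.90 with DAHB. The groups overlapped in this ratio (exact permutation test, two-sided, p = 0.5).

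Ccnd1 was low and uneven, at 73.5, 164 and 207 with NaCl and 241, 185 and 209.8 with DAHB. NaCl replicate 1 stood well under the other NaCl libraries, the groups overlapped, and the difference did not pass the test (log2 fold change 0.63, SE 0.274, adjusted p = 0.0619). It passed without NaCl replicate 2 (adjusted p = 0.0487), without NaCl replicate 3 (0.00658) and without DAHB replicate 2 (0.0414). Without NaCl replicate 1, the low library, the log2 fold change was 0.19 (adjusted p = 0.304), and under quantile normalisation it was 0.31 (adjusted p = 0.329). Of the myeloid markers, Csf1r and Lyz2 were low in NaCl replicate 1 too, and Itgam was not. Csf1r was at 55.9, 139 and 178 with NaCl and 159, 138 and 199.8 with DAHB. Lyz2 was at 297, 468 and 583 with NaCl and 531, 826 and 739 with DAHB. Itgam, with few reads, was at 20.8, 19.9 and 24.3 with NaCl and 9.88, 30.8 and 32.2 with DAHB. The part of other cells in the level of Ccnd1 was not tested, and fewer cells of a type cannot be told apart from less RNA per cell in bulk samples. Of the exons of Ccnd1, 23.4% overlap those of LTO1, a gene on the opposite strand.

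The kinase partners of the D cyclins moved apart. Cdk4 (ENSMUSG00000006728, chromosome 10, 127063534 to 127067920) was at 9753, 9394 and 9949 with NaCl and 6476, 6837 and 6752 with DAHB, with all DAHB libraries below all NaCl libraries. It fell from 9699 ± 281 to 6688 ± 189 (SD, n = 3), or log2 fold change -0.54, SE 0.043, adjusted p = 1.45e-07. Its relative Cdk6 (ENSMUSG00000040274, chromosome 5, 3341485 to 3531008) was at 9449, 10340.3 and 9979.5 with NaCl and 11157, 10769.7 and 10488 with DAHB. The groups lay close together without overlapping. Cdk6 was called as higher by a small margin (log2 fold change 0.12, SE 0.046, adjusted p = 0.0334), and the call was lost without NaCl replicate 1 (adjusted p = 0.183), without NaCl replicate 3 (0.0757), without DAHB replicate 2 (0.0555) and with the replicate number as a block (0.0702). The ratio of Cdk4 to Cdk6 was 1.03, 0.909 and 0.997 with NaCl and 0.580, 0.635 and 0.644 with DAHB. That is a change of the ratio to 0.633 of its NaCl level (log2 difference -0.66, lower in 3 of 3 DAHB libraries; exact permutation test, two-sided, p = 0.1, the smallest that 3 against 3 libraries allow, and 0.15 adjusted over 6 ratios). Exons of Cdk4 share 19.7% of their length with Tspan31 on the opposite strand.

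Levels of different genes can be compared only roughly per kilobase of exon. The length counts every annotated exon of a gene, used in these cells or not, so levels and ranks depend on the annotation. On this scale Ccnd2 was the highest member in both groups, at 4509 ± 135 with NaCl and 5941 ± 59.9 with DAHB. Cdk4 was at 2985 ± 86.6 with NaCl and 2059 ± 58.2 with DAHB on this scale, Ccnd3 at 823 ± 22.1 with NaCl and 1054 ± 15.7 with DAHB and Cdk6 at 709 ± 32.0 with NaCl and 772 ± 24.0 with DAHB. Among all members Cdk4 had rank 3 with NaCl and rank 5 with DAHB. Ccnd1, at 31.4 ± 14.5 with NaCl and 45.0 ± 6.01 with DAHB, was far below the other D-type cyclins in both groups.

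The E-type cyclins, partners of CDK2 at the entry to S phase, did not move as a pair. Ccne2 (ENSMUSG00000028212, chromosome 4, 11191351 to 11204779) was at 2490.1, 2402 and 2506 with NaCl and 1142, 1547 and 1357 with DAHB. The DAHB libraries were all lower and also more spread out, and Ccne2 fell from 2466 ± 56.2 to 1348 ± 203 (SD, n = 3), or log2 fold change -0.88, SE 0.084, adjusted p = 7.62e-07, the largest fall of any member. Ccne1 (ENSMUSG00000002068, chromosome 7, 38097984 to 38107534) was at 3505, 3402 and 3641 with NaCl and 3326, 3911 and 3621 with DAHB, with overlapping groups and no call (log2 fold change 0.04, SE 0.058, adjusted p = 0.589). The ratio of Ccne1 to Ccne2 was 1.41, 1.42 and 1.45 with NaCl and 2.91, 2.53 and 2.67 with DAHB, a change of 1.89-fold (log2 difference 0.92, higher in 3 of 3 DAHB libraries; exact permutation test, p = 0.1, and 0.15 adjusted over 6 ratios). Exons of Ccne2 share 17.4% of their length with Ints8 on the opposite strand.

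Cdk2, the kinase of cyclins E and A, was at 2589, 2603 and 2633 with NaCl and 1914, 1838 and 1925 with DAHB. It fell from 2608 ± 22.4 to 1892 ± 47.4 (SD, n = 3), or log2 fold change -0.46, SE 0.047, adjusted p = 1.37e-06, with a spread within groups that was small beside the gap between them. Ccna2, the cyclin A of dividing body cells, was at 8489, 8625 and 8472 with NaCl and 5207, 5666 and 6014 with DAHB. Every DAHB library was below every NaCl library, with DAHB replicate 1 lowest, and the log2 fold change was -0.60 (adjusted p = 2.53e-07). Ccna2 shares 12.5% of its exon length with Exosc9 on the opposite strand.

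The mitotic cyclins fell by less. Ccnb1 (ENSMUSG00000041431, chromosome 13, 100778650 to 100786570) was at 9203, 8978 and 9202 with NaCl and 7177, 7494 and 7747 with DAHB, without overlap, and fell from 9128 ± 129.9 to 7473 ± 285 (SD, n = 3), or log2 fold change -0.29, SE 0.043, adjusted p = 5.30e-05. Ccnb2 (ENSMUSG00000032218, chromosome 9, 70407692 to 70421547) was at 2121, 2018 and 2001 with NaCl and 1515, 1703 and 1612 with DAHB and also fell, from 2046 ± 64.8 to 1609.9 ± 94.2 (SD, n = 3) (log2 fold change -0.35, SE 0.056, adjusted p = 0.000106). The ratio of Ccnb1 to Ccnb2 was 4.34, 4.45 and 4.60 with NaCl and 4.74, 4.40 and 4.81 with DAHB, and these groups overlapped (exact permutation test, p = 0.3). Their kinase Cdk1 was at 3986, 3979 and 4068 with NaCl and 3868, 4175 and 4429.5 with DAHB. DAHB replicate 1 was below all NaCl libraries and the other DAHB libraries above them, and Cdk1 did not pass the test (log2 fold change 0.05, SE 0.052, adjusted p = 0.436). Without DAHB replicate 1 it passed as higher (log2 fold change 0.10, adjusted p = 0.0487), as it did with quantile normalisation (0.15, adjusted p = 0.0199). With the GC and length correction the value was 0.10 (adjusted p = 0.0737), and it was 0.00278 without DAHB replicate 3 (adjusted p = 0.970).

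**Figure D2:**
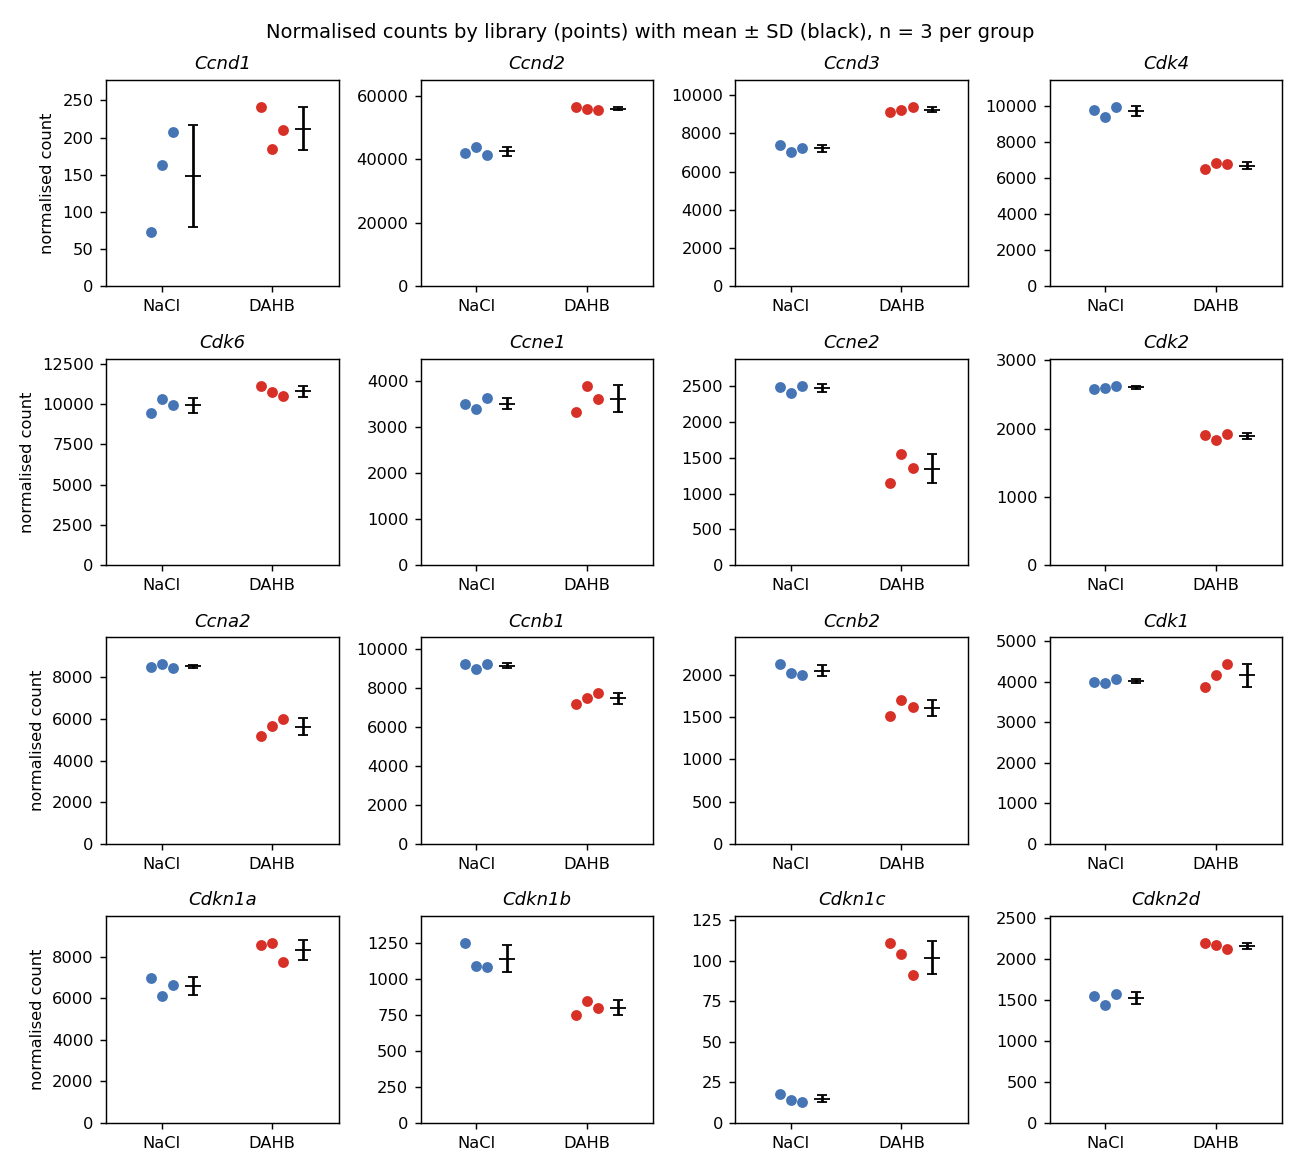
Normalised counts (vertical axes, each from 0) of 16 core members in the NaCl libraries (blue) and the DAHB libraries (red), with the mean and SD of 3 libraries in black. The groups are apart for Ccnd2, Ccnd3, Cdk4, Cdk6, Ccne2, Cdk2, Ccna2, Ccnb1, Ccnb2 and the inhibitors shown, and overlap for Ccnd1, Ccne1 and Cdk1.

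The CDC25 phosphatases, which activate the CDKs, differed in direction. Cdc25a, which acts from the entry to S phase onwards, was at 4976, 5196 and 4929 with NaCl and 3945, 4069 and 4126 with DAHB and fell (log2 fold change -0.31, SE 0.044, adjusted p = 2.86e-05), with a log2 fold change of -0.21 under quantile normalisation. Cdc25b was at 2365, 2386 and 2398 with NaCl and 1809, 1791 and 1672 with DAHB, tightly grouped with NaCl, and fell (log2 fold change -0.44, SE 0.050, adjusted p = 4.23e-06). Cdc25c, which acts at the entry to mitosis, was at 408, 395 and 377 with NaCl and 432, 473 and 462 with DAHB. The groups lay close together without overlapping, and Cdc25c was called as higher (log2 fold change 0.21, SE 0.080, adjusted p = 0.0357). This call was lost by DESeq2 (adjusted p = 0.0656), under quantile normalisation (0.166), with the replicate block (0.0649), and without NaCl replicate 2 or 3 or DAHB replicate 2 or 3 (0.0691 to 0.129).

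The CIP/KIP inhibitors bind cyclin-CDK complexes. Cdkn1a (ENSMUSG00000023067, chromosome 17, 29090976 to 29100727), which encodes p21, a target of p53, was at 6960.5, 6122 and 6633 with NaCl and 8558, 8641 and 7742 with DAHB. It rose from 6572 ± 423 to 8314 ± 497 (SD, n = 3), or log2 fold change 0.34, SE 0.056, adjusted p = 0.000133. Cdkn1b (ENSMUSG00000003031, chromosome 6, 134920401 to 134925513), which encodes p27, the inhibitor known for holding T cells at rest, was at 1246, 1088 and 1084 with NaCl and 745, 848 and 799 with DAHB. It fell from 1139 ± 92.4 to 798 ± 51.5 (SD, n = 3), or log2 fold change -0.51, SE 0.073, adjusted p = 3.45e-05. The ratio of Cdkn1a to Cdkn1b was 5.59, 5.63 and 6.12 with NaCl and 11.5, 10.2 and 9.69 with DAHB, a change of 1.81-fold (log2 difference 0.85, higher in 3 of 3 DAHB libraries; exact permutation test, p = 0.1, and 0.15 adjusted over 6 ratios).

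Cdkn1c (ENSMUSG00000037664, chromosome 7, 143458339 to 143461050), an imprinted gene that encodes p57, had the largest change of any member. It was at 17.5, 14.4 and 13.1 with NaCl and 111, 104 and 91.0 with DAHB, on 16, 13 and 21 reads and 101, 98 and 82 reads. It rose from 15.004 ± 2.29 to 102 ± 10.1 (SD, n = 3), or log2 fold change 2.69, SE 0.224, adjusted p = 1.99e-07. This is about 6.46-fold, and the added count of 1 makes this fold of Cdkn1c slightly too small. Per kilobase of exon Cdkn1c was at 7.36 ± 1.12 with NaCl and 50.04 ± 4.95 with DAHB, against 1849.7 ± 119 with NaCl and 2339.98 ± 139.8 with DAHB for Cdkn1a, so it remained the lowest of the CIP/KIP genes in both groups. Of its exons 30.7% overlap an antisense gene, Gm44732, and with the strand setting unknown the reads of both cannot be told apart.

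The INK4 inhibitors bind CDK4 and CDK6. Cdkn2d, which encodes p19INK4D, was at 1552, 1436 and 1571 with NaCl and 2189.7, 2165 and 2116 with DAHB. It rose from 1519 ± 73.1 to 2157 ± 37.6 (SD, n = 3), or log2 fold change 0.51, SE 0.053, adjusted p = 1.80e-06. Cdkn2c, which encodes p18INK4C, was at 439.7, 453 and 437 with NaCl and 397, 440.1 and 449.6 with DAHB, and the groups overlapped (log2 fold change -0.05, SE 0.081, adjusted p = 0.629). Cdkn2a, whose transcripts encode either p16INK4A or the p53 regulator ARF and are not told apart in gene counts, was barely detected. It had 9, 0 and 8 reads with NaCl and 16, 22 and 13 with DAHB, or normalised counts of 9.87, 0 and 4.99 with NaCl and 17.6, 23.4 and 14.4 with DAHB. The groups did not overlap and the test called it as higher (log2 fold change 2.25, SE 0.711, adjusted p = 0.0143). The log2 fold change was 1.24 without NaCl replicate 2, the library at 0, and 0.97 with a pseudocount of 10, and the call was lost after quantile normalisation (1.49 on the log2 scale, adjusted p = 0.0603).

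**Figure D3:**
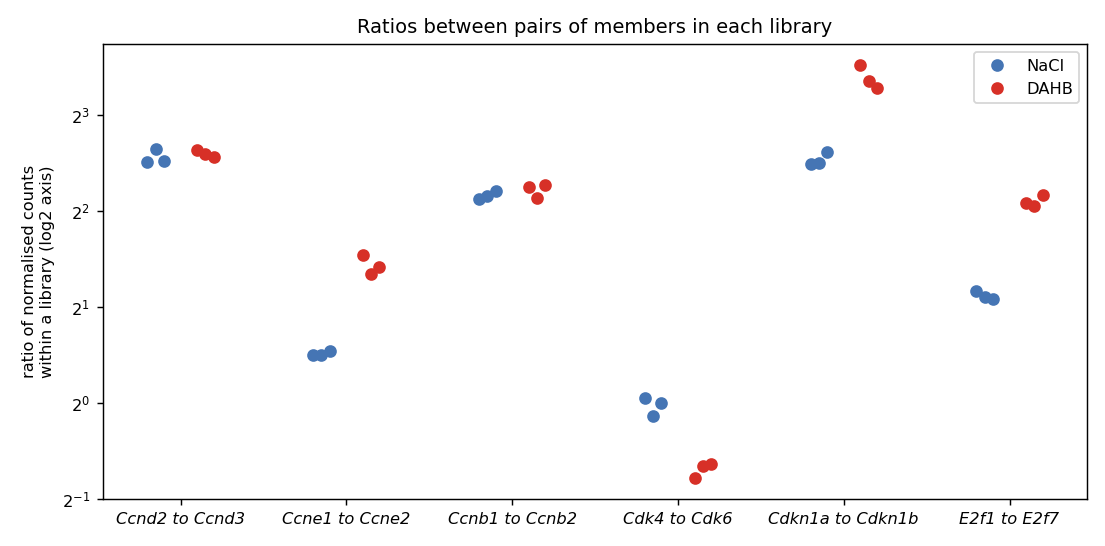
Ratio of the normalised counts of 2 members within each library (vertical axis, log2 scale), for 3 NaCl libraries in blue and 3 DAHB libraries in red. The ratios of Ccne1 to Ccne2, Cdkn1a to Cdkn1b and E2f1 to E2f7 were higher and that of Cdk4 to Cdk6 lower in all DAHB libraries, while Ccnd2 to Ccnd3 and Ccnb1 to Ccnb2 overlapped.

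Pocket proteins bind E2F factors and silence their targets. Rb1, the retinoblastoma gene, was at 1475, 1484 and 1456 with NaCl and 1598, 1655 and 1702 with DAHB and rose slightly (log2 fold change 0.17, SE 0.051, adjusted p = 0.0125). This call was lost without NaCl replicate 3 (adjusted p = 0.0505) or without DAHB replicate 3 (0.0609), and the log2 fold change was 0.29 after a correction for GC content and exon length. Rbl1, which encodes p107, was at 2162, 2256 and 2118 with NaCl and 2273, 2267 and 2190.4 with DAHB, with overlapping groups (adjusted p = 0.476). Rbl2, which encodes p130, the pocket protein of resting cells, was at 1056, 1018 and 978 with NaCl and 1152, 1075 and 1127 with DAHB, without overlap, and did not pass (log2 fold change 0.14, SE 0.059, adjusted p = 0.0636). Rbl1 and Rbl2 passed as higher with quantile normalisation (adjusted p = 0.0356 and 0.0405) and after the GC and length correction (0.0206 and 0.0109).

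Of the activator E2F genes 1 of 3 rose and of the repressor E2F genes 4 of 5 fell, where 29.4% of all genes tested rose and 29.1% fell. Among genes with a mean of at least 100, as these E2F genes have, 28.3% rose and 37.0% fell. The repressors that fell include E2f4, whose call was lost in most alternatives. E2f1 (ENSMUSG00000027490, chromosome 2, 154559407 to 154569892) was at 943, 970.4 and 1004 with NaCl and 1245, 1208 and 1211 with DAHB and rose from 973 ± 30.8 to 1221 ± 20.5 (SD, n = 3), or log2 fold change 0.33, SE 0.056, adjusted p = 0.000185. E2f2 was at 1550.4, 1630.2 and 1518 with NaCl and 1741, 1496 and 1659.7 with DAHB and E2f3 at 1632, 1842 and 1687 with NaCl and 1799, 1718 and 1768 with DAHB, with overlapping groups for both (adjusted p = 0.458 and adjusted p = 0.613). The repressor E2f7 (ENSMUSG00000020185, chromosome 10, 110745439 to 110787384), an atypical E2F that turns E2F targets off again, was at 419.95, 453 and 473 with NaCl and 294, 291 and 271 with DAHB. It fell from 449 ± 27.0 to 285 ± 12.7 (SD, n = 3), or log2 fold change -0.65, SE 0.088, adjusted p = 2.09e-05. The other atypical repressor, E2f8, was at 1627, 1729 and 1507 with NaCl and 1525, 1483 and 1432 with DAHB, with overlap, and did not pass the test (adjusted p = 0.0783), though it passed as lower without NaCl replicate 3 (0.0322) or without DAHB replicate 1 (0.0400).

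E2f5 was at 521, 501 and 551 with NaCl and 389.7, 416 and 414 with DAHB. E2f6 was at 1099, 1025 and 1079 with NaCl and 917, 871 and 887 with DAHB. Both repressors fell, without overlap (log2 fold changes -0.37 and -0.26, adjusted p = 0.00107 and adjusted p = 0.00185). E2f4, which works with p107 and p130 in resting cells, was at 8112, 8321 and 7822 with NaCl and 7952, 7119 and 7254 with DAHB. Its groups overlapped, and its call as lower (log2 fold change -0.12, SE 0.049, adjusted p = 0.0496) was lost in 11 of 16 alternatives. Its log2 fold change was -0.04 under quantile normalisation (adjusted p = 0.428) and -0.20 after the GC and length correction. The ratio of E2f1 to E2f7 was 2.25, 2.14 and 2.12 with NaCl and 4.23, 4.15 and 4.47 with DAHB. That is a change of 1.97-fold (log2 difference 0.98), higher in 3 of 3 DAHB libraries. The exact permutation test gave p = 0.1, and 0.15 adjusted over 6 ratios. All 6 pairs were chosen with earlier results of these data known. E2f1 rose and E2f7 fell on their own, so this ratio restates those calls and is no separate test.

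Promoters were searched for letters of known cell cycle elements, because several members are themselves E2F target genes. RefSeq promoters on GRCm38.p6, 250 bases before to 50 after a start, were matched by symbol for 49 of 64 members. The E2F letters were TTTGGCGC, TTTCGCGC, TTTCCCGC and TTTGCCGC, and those of the cell cycle homology region, or CHR, an element of late cell cycle genes, were TTTGAA and TTCGAA, on both strands. E2F letters were in 8 of 49 members (16.3%), against 4.77% of 10193 genes of the table, and CHR letters in 11 (22.4%), against 16.4%. By call, E2F letters were in 1 of 13 members that rose, 3 of 21 that fell and 4 of 15 that did not pass the test. CHR letters were in 2 of 13 that rose, 2 of 21 that fell and 7 of 15 that did not pass. The stretches below are the bases before the RefSeq start that lie outside annotated exons. They are shown for a phosphatase and a repressor that fell and for a kinase and a pocket protein that did not pass the test, with E2F and CHR letters in capitals.
Cdc25a (chr9:109875329-109875578, plus strand): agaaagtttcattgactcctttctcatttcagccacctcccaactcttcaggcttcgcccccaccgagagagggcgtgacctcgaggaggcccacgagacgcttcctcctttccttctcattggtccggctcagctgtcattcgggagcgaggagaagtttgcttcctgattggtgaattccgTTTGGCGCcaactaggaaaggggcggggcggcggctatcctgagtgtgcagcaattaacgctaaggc
E2f7 (chr10:110745189-110745438, plus strand): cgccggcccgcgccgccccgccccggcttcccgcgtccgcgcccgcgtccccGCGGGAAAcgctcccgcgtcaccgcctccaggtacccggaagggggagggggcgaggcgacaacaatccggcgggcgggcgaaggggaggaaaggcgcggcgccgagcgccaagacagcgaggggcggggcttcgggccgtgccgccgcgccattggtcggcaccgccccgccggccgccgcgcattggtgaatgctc
Cdk1 (chr10:69352939-69353162, minus strand): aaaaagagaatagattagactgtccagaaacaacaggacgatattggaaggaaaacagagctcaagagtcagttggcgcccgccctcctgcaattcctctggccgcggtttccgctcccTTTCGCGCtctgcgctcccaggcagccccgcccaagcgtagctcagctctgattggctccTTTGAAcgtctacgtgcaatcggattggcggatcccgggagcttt
Rbl1 (chr2:157204535-157204784, minus strand): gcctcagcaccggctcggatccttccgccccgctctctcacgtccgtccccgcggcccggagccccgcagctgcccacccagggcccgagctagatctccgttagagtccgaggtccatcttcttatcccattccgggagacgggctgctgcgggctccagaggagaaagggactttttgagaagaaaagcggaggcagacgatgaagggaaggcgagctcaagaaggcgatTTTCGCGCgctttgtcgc
Cdc25a holds TTTGGCGC on its own strand, E2f7 holds TTTCCCGC on the other strand, and Cdk1 and Rbl1 hold TTTCGCGC on their own strand. Cdk1 alone of the 4 stretches also holds a CHR match. A match describes letters only. Members with E2F letters were found among those that rose, those that fell and those not called.

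Partners of the members and E2F target genes, 54 genes that are no members, were all tested. Of the 24 partners and regulators 14 fell and 2 rose, with a median log2 fold change of -0.19. Over all genes tested 29.1% fell and 29.4% rose. Among genes with a mean of at least 100, as all 24 have, 37.0% fell and 28.3% rose. Cdc20, the activator of the anaphase-promoting complex, fell from 8554 ± 99.1 to 3660.00 ± 88.0 (SD, n = 3). Skp2, the ubiquitin ligase subunit that marks p27 for destruction, was at 895, 1040.00 and 983 with NaCl and 604, 575 and 592 with DAHB and fell (log2 fold change -0.72, SE 0.071, adjusted p = 1.06e-06). Lin52, a subunit of the DREAM complex, and Tfdp2, a dimer partner of E2F proteins, fell too (log2 fold changes -0.70 and -0.61). The 2 that rose were Fbxw7, the ubiquitin ligase subunit that marks cyclin E, with a log2 fold change of 0.55, and Mnat1, the assembly factor of CDK7, with 0.22.

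Of 30 E2F targets 15 fell and 5 rose, with a median of -0.16. Slbp, the histone mRNA binding protein, fell from 5061 ± 194 to 3332 ± 211 (SD, n = 3). Mcm5 and Orc1, genes of replication licensing, and Chek1, a checkpoint kinase gene, also fell (log2 fold changes -0.50, -0.50 and -0.40). The 5 that rose were Gins2, Dnmt1, Prim1, Uhrf1 and Rfc4, by 0.24 to 0.39. Over both lists 29 of 54 genes fell and 7 rose, where 29.1% of all genes tested fell and 29.4% rose. Among genes with a mean of at least 100, as all 54 have, 37.0% fell and 28.3% rose. As a share, 13.0% of the lists rose. Under quantile normalisation 14 rose, or 25.9%, near the 26.9% of all genes tested in that setting. After the GC and length correction 11 rose, or 20.4%, against 31.0% of all genes, and without DAHB replicate 1 also 11, against 29.9%.

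Transcriptional CDKs and cyclins regulate RNA polymerase II and splicing rather than the division cycle. Of the 11 members of this kind 8 fell, 1 rose and 2 did not pass the test. Of all genes tested 29.1% fell and 29.4% rose. Among genes with a mean of at least 100, as all 11 have, 37.0% fell and 28.3% rose. Their log2 fold changes lay between -0.63 and 0.26, with a median of -0.26. The transcriptional cyclins Ccnc, Ccnh and Ccnk have no digit in their symbols, so they were counted among the partners instead. None of them passed the test (log2 fold changes -0.14, 0.05 and 0.03, adjusted p = 0.132, 0.585 and 0.629). Ccnl1 and Ccnl2, cyclins of the splicing kinase CDK11, were at 965, 1005 and 779 with NaCl and 772, 546 and 483 with DAHB and at 1677, 1603 and 1608 with NaCl and 1260.1, 1122 and 1068 with DAHB. Both fell (-0.63 and -0.51 on the log2 scale, adjusted p = 0.00148 and adjusted p = 1.26e-05), and for Ccnl1 the gap between the groups was narrow, with DAHB replicate 1 just under NaCl replicate 3. Cdk7, the kinase of transcription factor TFIIH that also activates the other CDKs, was at 2239, 2112 and 2187 with NaCl and 1475, 1671 and 1697 with DAHB and fell (log2 fold change -0.43, SE 0.060, adjusted p = 2.52e-05).

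Ccnt1 and Ccnt2, the cyclins of the elongation factor P-TEFb, fell (log2 fold changes -0.23 and -0.31). The value of Ccnt1 was -0.13 under quantile normalisation, and that of Ccnt2 was -0.19 after the GC and length correction. Their kinase Cdk9 was at 4618 ± 61.4 and 4899 ± 60.6 (SD, n = 3), without overlap, and did not pass the test (adjusted p = 0.093). Quantile normalisation gave it a call as higher (0.19 on the log2 scale, adjusted p = 0.00131). Of the Mediator kinases, Cdk8 fell (-0.22, adjusted p = 0.000507, and -0.12 under quantile normalisation) and its relative Cdk19 rose (0.26, adjusted p = 0.00179). The elongation kinases Cdk12 and Cdk13 fell (log2 fold changes -0.32 and -0.26). For Cdk13 the groups overlapped and quantile normalisation took the call away (-0.16, adjusted p = 0.105), as did the fit without NaCl replicate 2 (0.0566). Cdk11b was at 3674 ± 195 and 3380.2 ± 157 (SD, n = 3) (adjusted p = 0.0657) and passed as lower without NaCl replicate 3 (0.0342), without DAHB replicate 1 (0.00933) or after the GC and length correction (0.0307).

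DAHB replicate 1 was the highest DAHB library for 7 of these 11 genes. Ccnt2 was at 955, 971 and 950.1 with NaCl and 900.05, 733 and 707 with DAHB, Cdk12 at 2694, 3074 and 2656 with NaCl and 2559.6, 2007 and 2218 with DAHB and Cdk13 at 3002, 3247 and 2779.8 with NaCl and 2864, 2273 and 2439 with DAHB. Over all 64 members DAHB replicate 1 was the highest library of its group for 30 and the lowest for 24. It was the highest for 3 of 3 E2F activators and 4 of 5 E2F repressors, but for 0 of 4 S phase and 0 of 3 mitotic members. For Ccne2, Ccna2, Ccnb1, Ccnb2, Cdk4 and Ccng1, which fell, it was the lowest DAHB library, though not for Cdk2. The calls of these 7 genes held without DAHB replicate 1.

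Among the other cyclins and kinases 4 of 10 rose and 2 fell, near the shares over all genes tested (29.4% and 29.1%). Ccng1 (ENSMUSG00000020326, chromosome 11, 40748552 to 40755311), an atypical cyclin and p53 target that recruits protein phosphatase 2A, was at 9732, 9703 and 9797 with NaCl and 5051, 6049.8 and 5756 with DAHB. All DAHB libraries were far below the NaCl libraries, and Ccng1 fell from 9744 ± 48.5 to 5619 ± 513 (SD, n = 3), or log2 fold change -0.80, SE 0.058, adjusted p = 4.96e-08. Its relative Ccng2, a growth-restraining cyclin, was at 869.5, 865 and 895 with NaCl and 611, 596 and 611 with DAHB and fell (log2 fold change -0.53, SE 0.063, adjusted p = 5.82e-06). Cdk18 (ENSMUSG00000026437, chromosome 1, 132112237 to 132139684), a PCTAIRE kinase, was at 14.3, 14.4 and 23.1 with NaCl and 82.3, 81.9 and 68.8 with DAHB, on 13, 13 and 37 reads and 75, 77 and 62 reads. It rose from 17.2 ± 5.06 to 77.7 ± 7.66 (SD, n = 3), or log2 fold change 2.14, SE 0.252, adjusted p = 5.79e-06.

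The PCTAIRE kinase Cdk17 was called as higher by 0.13 on the log2 scale, Cdk5, best known from neurons, by 0.25 and Cdkn3, a phosphatase that acts on CDK2, by 0.47 (adjusted p = 0.0224, adjusted p = 0.0214 and adjusted p = 0.00754). Under quantile normalisation the value of Cdk17 was 0.23, and Cdkn3 (0.16, adjusted p = 0.304) and Cdk5 (0.12, adjusted p = 0.223) lost their calls. The Cdk5 call was also lost without NaCl replicate 1 or 2 or DAHB replicate 2 (0.0533 to 0.0784), and that of Cdk17 without NaCl replicate 1 or 3 or DAHB replicate 2 (0.0545 to 0.115). Cdk10, Cdk14, Cdk16 and Cdk20 did not pass the test, with log2 fold changes of 0.08, -0.15, -0.11 and -0.19. Cdk14 was near the limit of detection, with 15 to 55 reads in a library. Cdk16 passed as lower without DAHB replicate 1 (adjusted p = 0.0278), and under quantile normalisation Cdk20 passed as lower (-0.67 on the log2 scale, adjusted p = 0.00372).

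The 11 genes matched by the start of their symbol alone were placed in none of the role groups above. They are of mixed kinds, and include an activator of CDK5 and pseudogenes. Cdk5rap3, a factor of protein UFMylation, was at 1364, 1325 and 1321 with NaCl and 2034, 1984 and 1824 with DAHB and rose (log2 fold change 0.54, SE 0.056, adjusted p = 1.57e-06). Cdkn2aip, which encodes a protein that binds ARF, was at 826, 872 and 757 with NaCl and 465, 512 and 482 with DAHB and fell (log2 fold change -0.75, SE 0.076, adjusted p = 1.37e-06). Of the exons of Cdkn2aip, 17.0% overlap an antisense gene, E030037K01Rik. Cdk5r2, an activator of CDK5, had 9 to 27 reads in a library and was called as higher (log2 fold change 0.82, SE 0.320, adjusted p = 0.0411), a call that was lost in 9 of 15 alternatives that tested it. Under quantile normalisation its log2 fold change was 0.37. Of the rest, Cdk2ap2, Cdkn2aipnl and Cdk5rap1 rose by log2 fold changes of 0.50, 0.49 and 0.37, and Cdk2ap1 fell by a log2 fold change of -0.49. Cdk5r1 and Cdk5rap2 did not pass (log2 fold changes -0.25 and 0.13, adjusted p = 0.169 and adjusted p = 0.107). Cdk5r1 passed as lower without DAHB replicate 1 (log2 fold change -0.45, adjusted p = 0.00152) and with quantile normalisation (-0.40, adjusted p = 0.0488), and its value was -0.09 without DAHB replicate 2 (adjusted p = 0.589). Cdk5rap2 passed as higher without DAHB replicate 2 (0.0491) and after the GC and length correction (0.0238). The pseudogenes Ccnb1-ps and Ccnb2-ps were at 41.7 ± 8.15 and 26.9 ± 6.80 (SD, n = 3) and 32.1 ± 6.74 and 35.8 ± 13.4 (SD, n = 3), neither called (adjusted p = 0.0587 and adjusted p = 0.784). They can share reads with Ccnb1 and Ccnb2, so their values are uncertain. Ccnb1-ps passed as lower in 5 of 15 alternatives, among them without NaCl replicate 2 (0.0487) and without DAHB replicate 3 (0.0386).

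**Figure D4:**
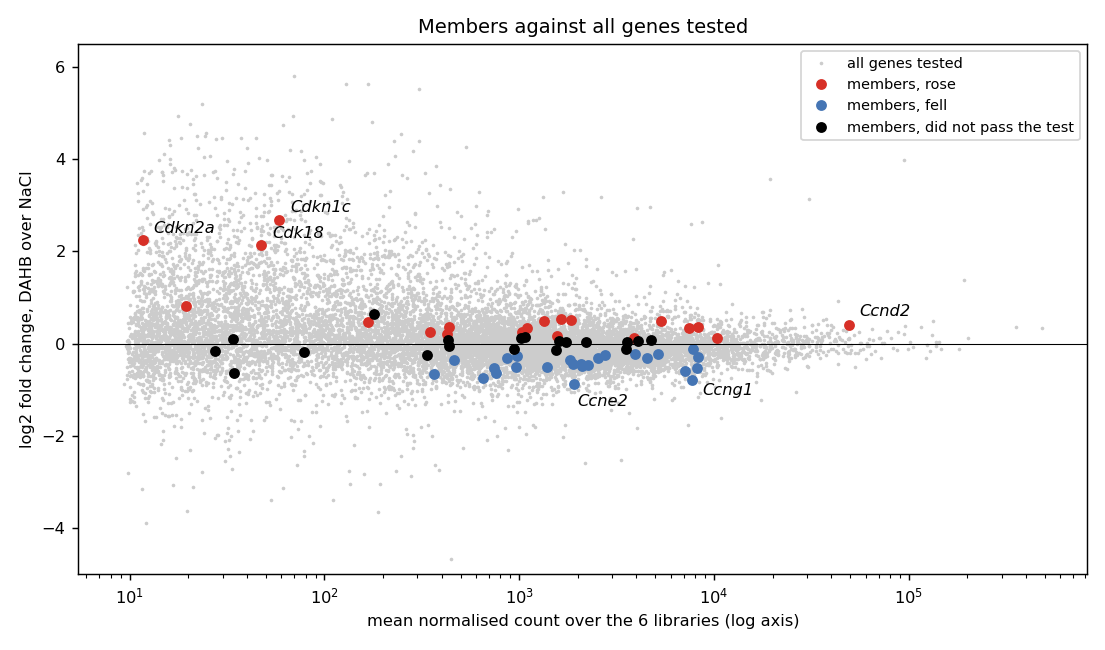
Log2 fold change of DAHB over NaCl (vertical axis) against the mean normalised count over the 6 libraries (horizontal axis, log scale), for 13804 genes tested in grey, and the 64 members in red (rose), blue (fell) or black (did not pass the test). Most members lie between -0.88 and 0.82, and those beyond, Cdkn1c, Cdkn2a and Cdk18, have mean counts under 100.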

How the data were processed

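Total RNA of 6 samples, 3 per treatment, was sequenced. The tools were Trimmomatic 0.36, featureCounts 1.5.2, STAR 2.5.2b and DESeq2, and the build GRCm38, per the submitters' processing notes. The sources used here give no annotation release, strand setting or DESeq2 version, so reads of genes that overlap on opposite strands, as for 26 members, cannot be told apart. Besides Ccnd1, Cdk4, Ccne2, Ccna2 and Cdkn1c, the overlap with 1 such gene was at least 10% of the exons for Cdkn2aip (17.0%), Cdc25c (12.7%), Rbl2 (11.8%) and E2f8 (11.2%). The deposited values are a normalised signal, read counts divided by a size factor for each library. Dividing by what 1 read is worth gave whole reads for 100% of values in each library (tolerance 0.001). No gene summed to fewer than 61 reads, and 5 protein-coding genes that fit the rule (Ccna1, Ccnb1ip1, Ccnb3, Cdk15 and Cdkn2b) were not analysed here.

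Within a group, every pair of libraries exceeded sampling noise (4.59 to 17.2 chi-square units per degree of freedom), and each library counted as 1 sample. The highest value was that of DAHB replicates 1 and 2. The whole table was fitted with limma-trend (limma 3.58.1, R 4.3.3), two-sided, on log2(normalised count + 1), for 13804 genes with at least 10 in at least 3 libraries. Over all genes limma called 8071. From the recovered reads, 8084 genes were called with edgeR 4.0.16 (quasi-likelihood) and 7670 with DESeq2 1.42.0. The procedure was tested on simulated data. Ratios of 2 members were compared by exact permutation tests. Exon lengths, coordinates and overlaps are from GENCODE M21 on GRCm38 and promoters from RefSeq on GRCm38.p6. The members, role groups, partner lists, ratios and motifs were chosen with earlier results of these data known. Values per library were to be given for all core members, for up to 3 called members of each other role group with the largest change, and partners were named as up to 4 of each list with the largest change among those called whose higher group averaged 100 or more. The 5 E2F targets and the regulators that rose, and members in the paragraph on DAHB replicate 1, were named after their values were seen. Protein sequences were not used here.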

Additional observations from a re-analysis of the deposited data

How the results depend on the processing

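Under 16 alternatives (pseudocounts of 0.5 and 10, no filter, a minimum of 50, quantile normalisation, equal library totals, a GC and exon length correction, edgeR, DESeq2, the replicate block and each library left out), the number of members that rose was 16 to 22 and that of members that fell 24 to 29, against 20 and 25. Of the 45 members called, 35 kept their call and direction in every alternative that tested them, and none changed sign. The 10 others were Cdk6, Cdc25c, Cdkn2a, Rb1, E2f4, Cdk13, Cdk17, Cdk5, Cdkn3 and Cdk5r2. With each library left out in turn the members that rose were 16 to 20 and those that fell 24 to 29, partner genes that rose 7 to 11 and those that fell 28 to 30. Partner genes that rose were 14 under quantile normalisation and 11 after the GC and length correction, against 7, and the cause was not tested.

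Values that changed sign belonged to members that had not passed the test. These were Ccne1 without DAHB replicate 2 (log2 fold change -0.0183, in a range up to 0.0985 over the libraries left out), Cdkn2c without DAHB replicate 1 (0.00489, range from -0.0841), E2f2 after the GC and length correction (-0.00564), E2f3 without NaCl replicate 1 (-0.00118, range up to 0.0864), Cdk14 without NaCl replicate 2 (0.0627, range from -0.51), and Ccnb2-ps under quantile normalisation (-0.40), without NaCl replicate 1 (-0.05) and without DAHB replicate 2 (-0.162, range up to 0.372). The 6 ratios kept their direction with a pseudocount of 10 and with each library left out. With the replicate number as a block, 18 members rose and 24 fell. Cdk6, Cdc25c, E2f4 and Cdk5r2 lost their call and Ccnd1 gained one (adjusted p = 0.0387). Deviations of same-numbered libraries from their group means correlated at -0.05, -0.15 and 0.04 across genes. Those of differently numbered libraries correlated at -0.07 to 0.11. With 3 libraries in each group these values cannot show whether the numbers pair the samples, and a weak pairing could be missed. At these depths members with few reads, such as Cdkn2a, Cdk5r2 and Cdk14, have the least precise values.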
